A study of Homo sapiens with 5 samples.

Results

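Peaks between annotated genes are places where sequenced RNA from a pull-down of the noncoding RNA SNHG5 was enriched outside the representative transcripts of the annotated genes. They were taken from both deposited peak lists of the pull-down as the peaks on chromosomes 1 to 22, X and Y whose summit, the base of highest coverage, lay in no basic transcript of GENCODE version 44 on GRCh37 (hg19). The basic set holds the representative transcripts of each gene, and 21 of the 63 Odd and 155 of the 972 Even peaks chosen this way (33.3% and 15.9%) lay in a GENCODE transcript outside it. The Odd list had 891 peaks on these chromosomes and 14 on other sequences, and 63 of the 891 lay between genes, 7.07% (95% Wilson interval 5.57 to 8.94). The Even list, of 8626 peaks, had 8403 there, and 972 of them lay between genes, 11.6% (10.9 to 12.3). The Even peaks with the smallest p, as many as the Odd list holds, are called the best Even peaks here, and 58 of their 855 on these chromosomes lay between genes, 6.78% (5.28 to 8.67). Bases between genes make up 40.7% of the called bases of these chromosomes.

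SNHG5 was retrieved from HCT116 cells, a human colorectal carcinoma line, by RIA-seq, in which biotinylated oligonucleotides fish out a cross-linked RNA with the RNAs attached to it, and what was retrieved is sequenced. The cells were cross-linked with glutaraldehyde, and every library was made from these same cells with no further treatment. The ODD pool and the EVEN pool are alternating sets of oligonucleotides along SNHG5, and the control libraries are labelled INPUT whereas the methods describe a pool against luciferase. Odd peaks came from 2 libraries pooled by the authors and Even peaks from 1 library, both against the same 2 control libraries, so there is no error between replicates for any value, and the 2 lists share their control.

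After the limit on duplicate tags the peak caller kept 4904959 of 150214135 Odd tags (3.27%) and 1965614 of 55933565 Even tags (3.51%). The Odd list ends at a −log10 p of 26.7, whereas members of the Even list reach down to 3.12. The best Even peaks end at 43.4. The whole Even list therefore holds many shallow peaks, and the values of its best peaks are given beside it. A peak list holds no expression levels, so the labelled cell line could not be checked against its marker genes. Intervals below are 95% intervals that cover counting error only, since peaks that share sequence or a neighbourhood are not independent.

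Genes are annotated from their known starts and ends, but RNA polymerase II runs on past the site where a messenger RNA is cleaved and polyadenylated, and upstream antisense and enhancer RNAs also arise outside annotated genes. RNA can therefore come from sequence between genes. A pull-down by antisense oligonucleotides can retrieve such an RNA because it is attached to the bait, or because its own sequence resembles the bait. Recently duplicated segments are a further property of some of these regions, since reads from one copy can be placed on another. Distance and orientation of the nearest gene, recurrence in the genome and sequence shared with SNHG5 were therefore described for each peak.

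Exact matches between peaks and SNHG5 are shown first because they mark where most of the Odd peaks between genes lay. The target is the spliced SNHG5 transcript with 6 exons and 451 nt, numbered from 1 at its 5′ end. Capitals in the SNHG5 lines mark the 10-nt words of SNHG5 that recurred in the members, and capitals in the other lines mark the longest exact match of that peak, in each case with the sequence of GRCh37 in the sense of SNHG5. The SNHG5 lines lie on the minus strand of chromosome 6 and each spans 1 exon junction. The words were picked from these same windows, so their counts are a description. The first lines are positions 262 to 319 of SNHG5 (chr6:86387164-86387519, intron included in this range) and the 6 Odd peaks with the longest matches that cover its 3′ word, with the larger fold enrichment first among equal lengths. They lay past CTSC, 47 kb past PGM1, at 3 copies of 1 sequence on chromosome 9 and on chromosome 13.
SNHG5 262 to 319: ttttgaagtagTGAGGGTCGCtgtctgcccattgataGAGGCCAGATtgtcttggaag
chr11:88020034-88020093, minus strand: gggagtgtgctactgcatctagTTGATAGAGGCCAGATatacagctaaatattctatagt
chr1:64172837-64172894, plus strand: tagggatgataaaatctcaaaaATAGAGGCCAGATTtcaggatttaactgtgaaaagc
chr9:40321957-40322013, plus strand: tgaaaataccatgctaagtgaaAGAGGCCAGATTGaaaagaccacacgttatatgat
chr9:47314976-47315032, minus strand: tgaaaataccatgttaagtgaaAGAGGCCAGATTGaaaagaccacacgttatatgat
chr9:65646471-65646527, plus strand: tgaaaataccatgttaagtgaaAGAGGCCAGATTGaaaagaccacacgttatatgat
chr13:113252416-113252472, plus strand: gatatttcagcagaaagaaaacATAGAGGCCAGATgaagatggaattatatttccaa

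The 5′ part of the same stretch recurred in other Odd peaks, of which the 3 with the longest matches are shown, a peak past a lncRNA gene on chromosome 18, another on chromosome 4 and the Odd peak with the largest pileup, near RNVU1-4 on chromosome 1.
chr18:77301217-77301272, plus strand: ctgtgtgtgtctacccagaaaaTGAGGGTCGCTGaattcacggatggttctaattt
chr4:1026770-1026825, plus strand: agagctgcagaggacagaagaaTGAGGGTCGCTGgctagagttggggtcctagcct
chr1:144301156-144301211, minus strand: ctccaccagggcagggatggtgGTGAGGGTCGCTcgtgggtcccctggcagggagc

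Among the best Even peaks a word near the 5′ end of SNHG5 recurred instead. It is shown with positions 37 to 68 (chr6:86387894-86388430, intron included in this range) and 3 Even peaks between genes, all on the minus strand.
SNHG5 37 to 68: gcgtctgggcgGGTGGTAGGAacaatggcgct
chr19:48248569-48248627, minus strand: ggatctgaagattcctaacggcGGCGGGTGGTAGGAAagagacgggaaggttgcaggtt
chr9:43035862-43035917, minus strand: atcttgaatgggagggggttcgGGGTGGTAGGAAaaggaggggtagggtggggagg
chr9:38553123-38553177, minus strand: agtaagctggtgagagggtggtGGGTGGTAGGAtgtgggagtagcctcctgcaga

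The longest match of an Odd member, at 17 nt, lay on chromosome 15 in the gap between a Y RNA gene, 7.30 kb away, and GCNT3, which encodes a mucin-type glycosyltransferase. A match of 16 nt, as long as that past CTSC, lay past AEBP2 on chromosome 12, which encodes a cofactor of a Polycomb repressive complex.
chr15:59875169-59875229, plus strand: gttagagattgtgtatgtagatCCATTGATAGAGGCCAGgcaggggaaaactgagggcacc
chr12:19689345-19689404, plus strand: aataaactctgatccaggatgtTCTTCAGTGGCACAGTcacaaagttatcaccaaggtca

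The Odd peaks between genes had values near those in introns. Fold enrichment is the authors' ratio of the pileup, the coverage by extended tags at the summit, to the local control background. It had a median of 44.5 (31.7 to 63.5) over the 63 Odd members, with a range of 5.58 to 348, against 46.7 in introns and 11.7 in coding sequence. The pileup had a median of 54.0 (42.0 to 72.0), against 53.0 in introns and 115 in coding sequence. Peaks between genes thus had lower pileups and higher ratios than coding peaks, as introns did.

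Among the best Even peaks the order was alike. The median fold enrichment of the 58 members was 50.9 (36.7 to 69.9), against 67.6 in introns and 15.2 in coding sequence, and their median pileup was 77.0 (62.0 to 135). The whole Even list was shallower, with the classes in the same order of fold enrichment. Of its 972 members 591 (60.8%) had a pileup of at most 6, as had 50.6% of its intron peaks and 9.90% of its coding peaks. As the caller scaled Even tags up by 2.03, a pileup of 6 stands for about 2.96 tags and a pileup of 4 for 1.97. The median fold enrichment of these 972 members was 9.47, against 11.7 in introns and 6.99 in coding sequence, and their median length was 290 bp, against 562 bp for Odd members and 705 bp among the best Even members.

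**Figure D1:**
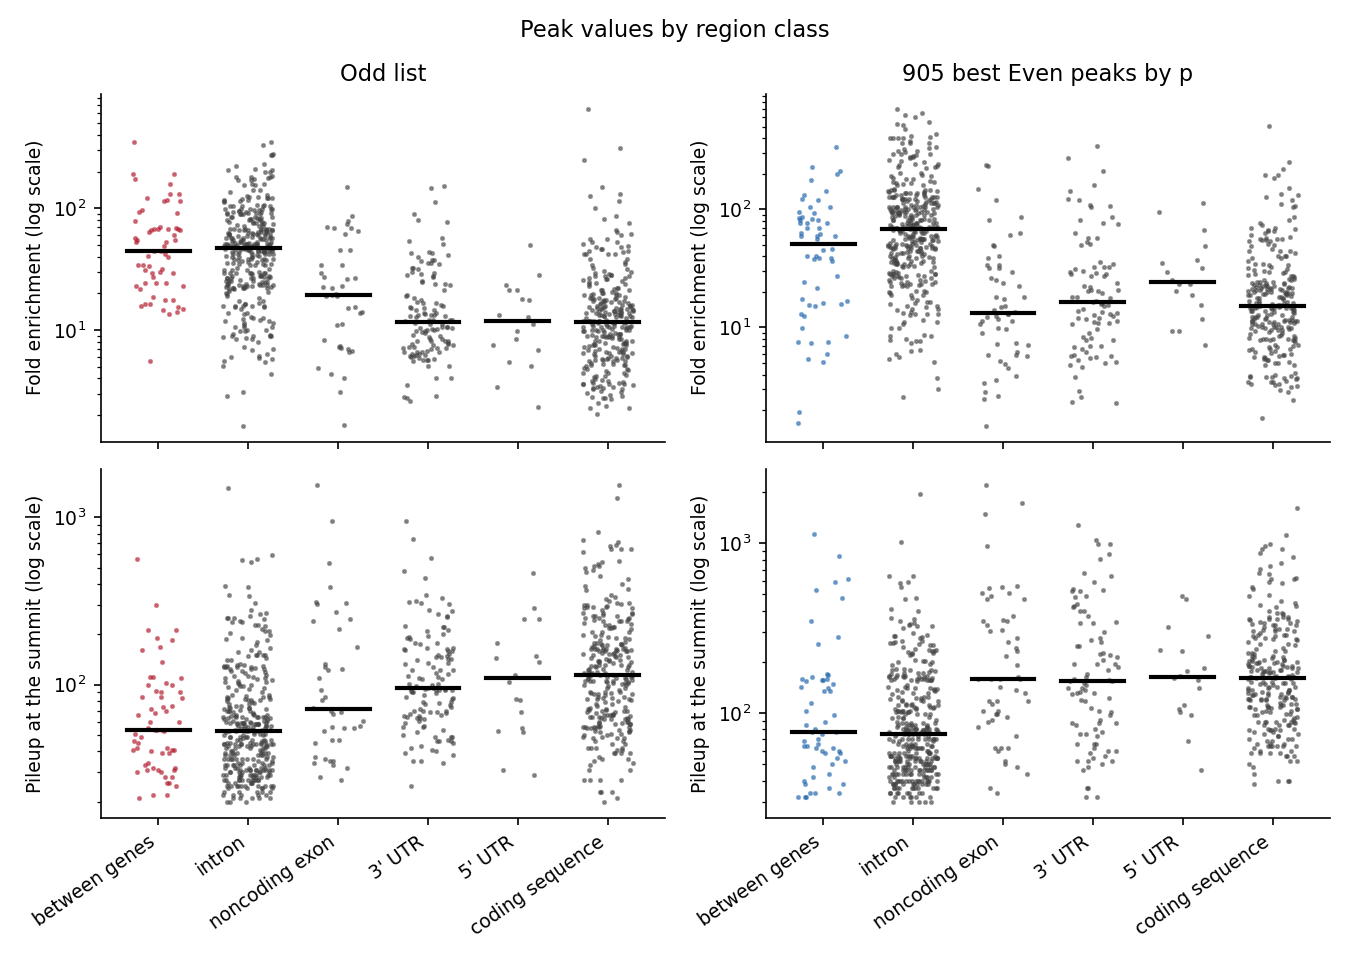
Fold enrichment (upper panels) and pileup at the summit (lower panels), both on log axes, of each peak of the Odd list and of the best Even peaks by p, by the annotation at the summit; coloured points are peaks between genes and black bars are medians. Peaks between genes lie at the level of introns in both measures, with an Odd median fold enrichment of 44.5 against 46.7 in introns and 11.7 in coding sequence.

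The strongest Odd peak between genes lay at chr16:9147045-9148616, in the gap between USP7, which encodes a deubiquitinase, and the lncRNA gene ENSG00000261392, whose start was 14.3 kb away. Its fold enrichment was 348 at a pileup of 167, and no Even peak overlapped it. Peaks 24.5 kb past the pseudogene RNF14P1 (chr2:139144792-139145485) and on chromosome 9 (chr9:81176922-81177553) both had a fold enrichment of 191 at a pileup of 90. The peak 14.2 kb past the end of AEBP2 (chr12:19688783-19689896) had 172, and the one between a Y RNA gene and GCNT3 (chr15:59874757-59875631) had 159. The 10 largest values were completed by peaks 10.5 kb past CDC42SE2, which encodes a small effector of CDC42 (131), on the copied sequence of chromosome 9 at chr9:40321715-40322250 (130), past CTSC (122), on chromosome 20 at chr20:39499751-39500448 (116) and 22.8 kb past VWDE (114). Except for the peak on chromosome 20, which had a longest match of 10 nt, each of these 10 held a match of at least 11 nt to the spliced SNHG5 transcript. The peaks past AEBP2 and CTSC and the one at chr9:40321715-40322250 lay in a GENCODE transcript outside the basic set.

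The largest Odd pileup among the members, 564, was at chr1:144300556-144301729, a segment 10.0 kb past RNVU1-4, a variant gene of the spliceosomal U1 RNA. All of its 48-nt sequences occurred elsewhere in the genome, and its fold enrichment was 41.7. In the Even list the largest pileup, 2283, lay at chr21:9827035-9827626 beside MIR3687, a microRNA annotated in a ribosomal RNA repeat, with a fold enrichment of only 1.34 and 83.7% of its sequence found elsewhere. At both places a high pileup went with a moderate or low ratio to the control.

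The strongest Even peak between genes was 8.17 kb past NAPG (chr18:10560601-10561539), which encodes a factor that disassembles membrane fusion complexes, with a fold enrichment of 336. Next were peaks 3.92 kb past the lncRNA gene ENSG00000289278, in its gap to DLK1, which encodes an imprinted Notch family ligand (227 at chr14:101158571-101159726), 0.0960 kb upstream of ENSG00000279140 (208 at chr14:105281672-105282499), upstream of NHSL1 (199 at chr6:138909932-138910694) and past CTSC (175). None of these except the CTSC peak was overlapped by an Odd peak. The peaks upstream of NHSL1 and past CTSC lay in a GENCODE transcript outside the basic set. The 10 largest values were completed by peaks between the Y RNA gene and GCNT3 (142), past CTNND1 (132), past RNF14P1 (123), at chr15:67323004-67324476 (119) and 21.8 kb upstream of CD163 (104, chr12:7678027-7678572). The peak at chr15:67323004-67324476 had the lncRNA gene ENSG00000259347 on both sides of its gap and lay in a transcript outside the basic set.

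Members lay closer to genes than bases between genes do, and Odd members lay more often past gene ends. The median distance from the summit to the nearest gene edge was 5582 bp (3393 to 10466) for Odd members, 4936 bp for the best Even members and 8952 bp for the whole Even list, against 18358 bp for all bases between genes. Of the 63 Odd members, 22 lay within 5 kb downstream of the end of the nearest gene, 34.9% (24.3 to 47.2), and 9 lay within 5 kb upstream of its start, 14.3%. Of the bases between genes, 11.2% lie in the downstream zone and 10.2% in the upstream zone. The downstream zone held a larger share of Odd members than of bases, and the interval of the upstream share included the share of bases.

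Even members lay near genes on both sides. Downstream within 5 kb lay 15 of 58 best Even members, 25.9% (16.3 to 38.4), and 14 lay upstream, 24.1% (15 to 36.5). In the whole Even list these were 203 of 972, 20.9% (18.4 to 23.6), and 134, 13.8% (11.8 to 16.1). All 4 of these Even shares were above those of bases, upstream as well as downstream. The share downstream was higher in Odd than in the whole Even list by 14.0 percentage points (Newcombe interval 3.11 to 26.6). Against the best Even members the difference was 9.06 points, and its interval, -7.34 to 24.6, included 0. At any distance the nearest edge was a gene end for 66.7% of Odd (54.4 to 77.1), 44.8% of best Even (32.7 to 57.5) and 56.2% of all Even members (53.0 to 59.3), against 52.2% of bases, and the difference between Odd and best Even was 21.8 points (4.14 to 37.8). Part of the placement depends on the annotation, since 13 Odd members, 20.6%, were within 5 kb past the end of the nearest protein coding gene when other genes were ignored.

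**Figure D2:**
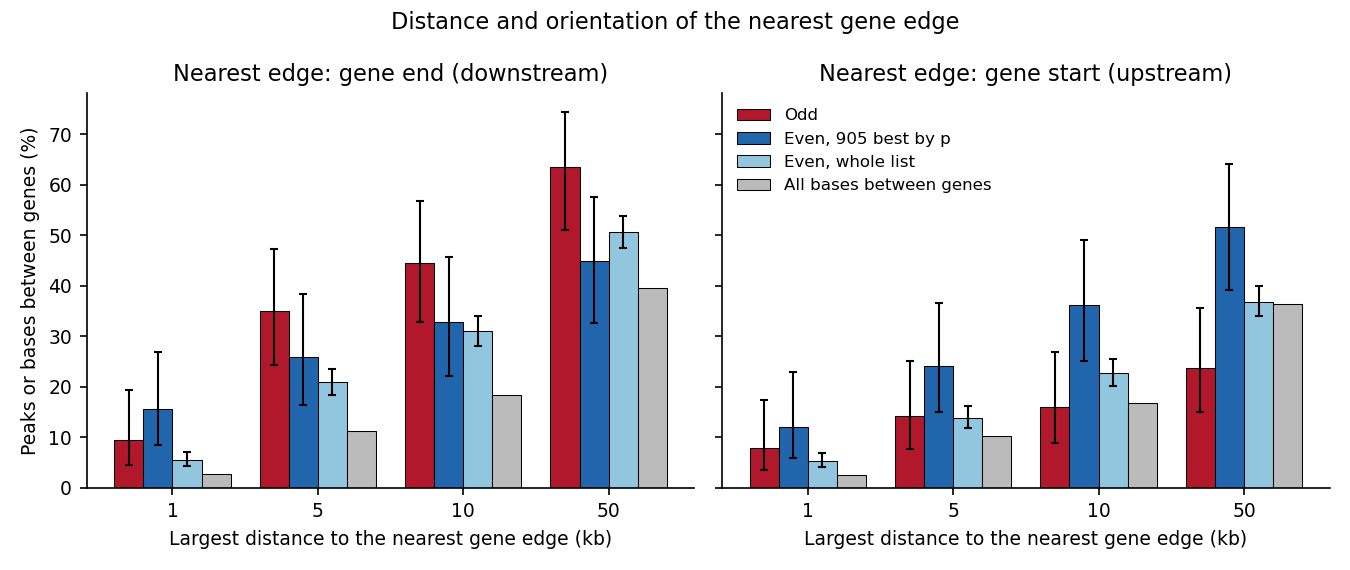
Share of peaks between genes whose nearest gene edge is a gene end (left) or a gene start (right) within 1, 5, 10 or 50 kb, for the Odd list, the best Even peaks and the whole Even list, with the share of all bases between genes in grey; bars show 95% Wilson intervals. At 5 kb downstream the Odd share is 34.9% against 11.2% of bases.

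The genes nearest to Odd members, on either side, were of several kinds. The nearest gene was protein coding for 31 members, a pseudogene for 15, a lncRNA gene for 9 and a small RNA gene for 8. Histone, zinc finger (ZNF) and SNHG genes were the nearest gene of 0 Odd members, spliceosomal RNU genes of 1 and ribosomal protein pseudogenes of 1. In the whole Even list the counts were 0 for histone, 6 for ZNF, 1 for SNHG, 20 for RNU genes and 19 for ribosomal protein pseudogenes. How often each kind or family is nearest to bases between genes at large was not computed. These counts therefore do not show whether any kind or family was over- or under-represented.

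The 5 largest Odd fold enrichments in the downstream zone were found 2.50 kb past a Y RNA gene in its gap to ARMC1 (114, chr8:66507135-66507811), 0.338 kb past the lncRNA gene ENSG00000286296 (69.9), 1.91 kb past NPAT, which encodes an activator of histone gene transcription (67.5, chr11:108025776-108026337), 1.77 kb past INSIG2, which encodes a regulator of cholesterol synthesis (65.6, chr2:118870189-118870623), and 1.63 kb past RPL39P16 (55.0). The RPL39P16 peak lay in a GENCODE transcript outside the basic set. Few Odd members, on either side, had a nearest gene that itself held an Odd peak. Of the 22 Odd members within 5 kb past a gene end, 1 had a nearest gene with an Odd peak within its transcripts, 4.55% (0.807 to 21.8). Within 5 kb upstream it was 1 of 9 (11.1%) and farther away 2 of 32 (6.25%). In the whole Even list it was 36 of 203 members downstream, 17.7% (13.1 to 23.6), against 12.7% upstream and 14.8% farther away. The peak past CDC42SE2, farther than 5 kb, followed a gene with 3 Odd peaks.

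In the Even list the 5 largest in the downstream zone included the peak past ENSG00000289278 and a long peak of 2956 bp 2.56 kb past RNF187 (chr1:228684643-228687598), with a pileup of 588 and a fold enrichment of 69.2. The others were 0.423 kb past RNU6-1161P (80.5), the peak in the gap before ARMC1 (69.9) and a copied segment at chr9:46269336-46270111 (52.1). The RNF187 peak lay in a GENCODE transcript outside the basic set.

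Neither list gives a strand, but a match to SNHG5 has one. Of the Odd members within 5 kb downstream that held a match of at least 11 nt on 1 strand relative to the nearest gene, 11 had it on the strand of that gene and 7 on the other, 61.1% (38.6 to 79.7). For the whole Even list it was 35 and 21. Within 50 kb downstream the best Even members had 11 on the strand of the gene and 1 on the other, 91.7% (64.6 to 98.5), whereas Odd members had 20 and 12 (62.5%) and all Even members 72 and 45 (61.5%). Within 50 kb upstream the counts were 7 and 4 for Odd (63.6%), 9 and 6 for best Even (60.0%) and 46 and 31 for all Even members (59.7%). The share on the strand of the gene was above 50% upstream as well as downstream, but the upstream intervals all included 50%. They were 35.4 to 84.8 for Odd, 35.7 to 80.2 for best Even and 48.6 to 70.0 for all Even members. Within 50 kb downstream the Odd interval, 45.3 to 77.1, also included 50%, and that of all Even members was 52.5 to 69.9. Gaps between genes were convergent, with a gene end on both sides, for 36.5% of Odd, 27.6% of best Even and 31.1% of all Even members, against 26.3% of bases.

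A gene family on chromosome 12 gave 3 Odd members with the same match, and was singled out after its values were seen. The peaks lay 3.49 kb past TAS2R30, 3.61 kb past TAS2R43 and 3.81 kb past TAS2R46, which encode related bitter taste receptors. Their fold enrichments were 53.1, 44.5 and 24.2, and each held the same 12 nt of SNHG5, positions 297 to 308, on the strand of the receptor gene. All 3 were overlapped by Even peaks, with fold enrichments of 36.7, 52.1 and 17.5. The summits of all 3 Odd peaks lay in a GENCODE transcript outside the basic set.

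Members near one another were counted as clusters. With a largest gap of 10 kb between summits, 3 of 63 Odd members (4.76%) shared a cluster with another member, and 111 of 972 Even members (11.4%) and 0 of the 58 best Even members did. Over all peaks of these chromosomes, 171 of 891 Odd peaks (19.2%), 2243 of 8403 Even peaks (26.7%) and 188 of 855 best Even peaks were in clusters. Members were grouped only with other members, so their shares also depend on how many there were, and the shares over all peaks are not on the same footing.

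The single Odd cluster held 3 peaks over 12.1 kb past CPZ, which encodes a carboxypeptidase (chr4:8622206-8634353). They lay 0.971, 6.61 and 12.2 kb past the gene end, with pileups of 184, 189 and 211 and fold enrichments of 44.2, 49.2 and 60.0. Between 82.4% and 89.9% of their 48-nt sequences occurred elsewhere, and each held the same 11 nt of SNHG5, positions 273 to 283, at the same distance of 93.0 bp from the summit. An Even peak overlapped each, with fold enrichments of 6.89, 9.13 and 12.7. The 3 peaks are copies of 1 sequence and so amount to 1 observation, but the shares given here count each of them. With 1 peak per cluster, 34.4% of Odd members lay within 5 kb downstream and 77.0% held a match of at least 11 nt. The 3 peaks past the bitter taste receptor genes share 1 match, as do the 3 aligned peaks of chromosome 9. They lie in no cluster, so each of them was still counted.

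The largest Even cluster held 4 peaks over 4.01 kb past CTSC, which encodes the lysosomal protease cathepsin C (chr11:88018168-88022175). Its main peak had a pileup of 350 and a fold enrichment of 175, and the others had pileups of 10.0, 8 and 6. The main peak lay 5.60 kb past CTSC and its summit was 20 bp from that of the Odd peak there, which had a pileup of 301 and a fold enrichment of 122. Both held the same 16-nt match, which is shown above for chromosome 11. This region is covered by a transcript outside the basic set. The next Even clusters, of 3 peaks each, lay 10.2 to 15.3 kb past CTNND1, which encodes p120 catenin, and upstream of MLXIPL, which encodes a glucose-responsive transcription factor.

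Members of both lists met at 33 places. An Even peak overlapped 33 of the 63 Odd members by at least 1 bp, 52.4% (40.3 to 64.2), where 39.8% of the whole Odd list was so overlapped. Only 9 of these partners were among the best Even peaks, 14.3% of the Odd members, where 13.1% of the whole list was. The same 33 pairs, counted over the longer Even list, make up a smaller share of it. Of the 972 Even members 33 were overlapped by an Odd peak, 3.40% (4.32% of the whole Even list), and of the 58 best Even members 9 were, 15.5% (13.3% of the best Even peaks). These shares lie near those of the complete lists. The exception is the share of Odd members overlapped by the whole Even list, whose interval began at 40.3%, just above its background. Odd introns had a share of 44.8%, and members exceeded them by 7.62 points (-5.56 to 20.5). They exceeded Odd noncoding exons by 2.38 points (-16.5 to 21.1), and neither of these intervals excluded an equal share. Members exceeded Odd coding sequence by 21.2 points (7.91 to 34.1). In the Odd list the overlap thus set members apart from coding sequence, but not from introns or noncoding exons. In the whole Even list members were overlapped less often than coding sequence, with a difference of -1.72 points (-3.19 to -0.0963). Among the best Even peaks that difference was 4.32 points (-4.07 to 16.2).

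All 33 partners lay between genes too, and 24 of 33 summits were within 50 bp of each other, with a median of 20 bp. Overlapped Odd members had a median fold enrichment of 60.0, and the others 25.8. For Even members these medians were 23.7 and 9.47.

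The 9 places where both lists had strong peaks are given with the Odd and then the Even fold enrichment. Both were high past RNF14P1, with 191 and 123, between the Y RNA gene and GCNT3, with 159 and 142, and past CTSC, with 122 and 175. The values were 130 and 40.3 at the copied segment of chromosome 9, and 114 and 69.9 in the gap before ARMC1. They were 78.1 and 61.2 at GTF2IRD2B, 53.1 and 36.7 past TAS2R30, 41.7 and 13 near RNVU1-4, and 31.7 and 38.5 at chr4:188852280-188852760. The Odd value was the higher at all of these except CTSC and the last. GTF2IRD2B, the chromosome 9 segment and RNVU1-4 had 94.3%, 89.4% and 100% of their 48-nt sequences elsewhere, and the other 6 had at most 22%.

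Recurrent sequence set members apart from peaks in introns and coding sequence. A peak was taken to have copies when at least 50% of the 48-nt stretches in its summit window were also found at another place in the genome. This held for 16 of 63 Odd members, 25.4% (16.3 to 37.3), where it held for 5.39% of all Odd peaks. In introns the share was 4.25% and in coding sequence 3.11%, and members exceeded introns by 21.1 points (11.7 to 33.2). Of the best Even members 16 of 58 did so, 27.6% (17.8 to 40.2; 5.38% of the best Even peaks), and of all Even members 169 of 969 with a called sequence, 17.4% (15.2 to 20; 5.86% of the list). Noncoding exons had a share of 14.3% in the Odd list, and the interval of its difference from the members, 11.1 points, was -5.22 to 25.3. In the whole Even list this difference was 2.80 points (-1.48 to 6.73), and among the best Even peaks 15.1 (0.238 to 29.2). For any copied 48-nt sequence, members minus noncoding exons gave -0.794 points in Odd, -4.06 in Even and -14.2 in best Even peaks, with intervals that included 0. The share of windows between genes at large with copies was not computed.

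**Figure D3:**
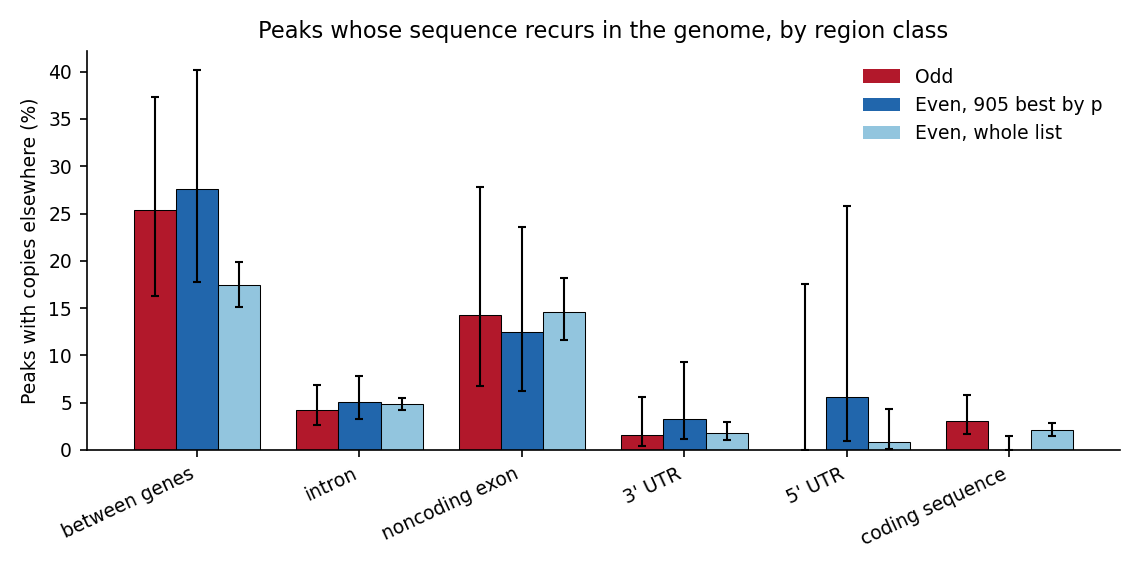
Share of peaks for which at least 50% of the 48-nt sequences around the summit occur elsewhere in GRCh37, by annotation at the summit, for the Odd list, the best Even peaks and the whole Even list; bars show 95% Wilson intervals. Peaks between genes have the largest shares in all 3 sets, from 17.4% to 27.6%.

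Chromosome 9, whose regions around the centromere are recently duplicated, held 11 of the 63 Odd members, 17.5% (10.0 to 28.6), against 6.73% of all Odd peaks and 4.67% of the bases between genes. Without members that had copies elsewhere the share was 8.51%. The 3 aligned sequences of chromosome 9 shown above had fold enrichments of 130, 97.2 and 91.6, and were 89.4%, 100% and 100% found elsewhere. How reads were assigned among such copies was not tested. Without members with copies elsewhere, the share within 5 kb downstream was 40.4%, and 34.9% with them.

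Members had a higher GC content than windows between genes at large. The median GC content of the window of 250 bases to either side of the summit was 43.7% (41.9 to 47.1) for Odd, 46.4% (42.5 to 49.7) for best Even and 44.1% (43.7 to 44.9) for all Even members. Windows centred on bases between genes have a median of 39.5%, below all 3 intervals. Odd introns had 41.5% and coding sequence 42.9%. In the whole Even list introns had 42.9% (42.7 to 43.3) and coding sequence 39.9% (39.3 to 40.9), both below the interval of the members, and the 5′ UTR peaks of Odd and of all Even had 60.3% and 64.1%. Within the Odd list members downstream of genes had 42.0%, those upstream 48.1% and those farther away 44.5%. Among the best Even members the upstream ones had 54.8% and the downstream ones 40.7%.

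Matches to SNHG5 depended on which form of SNHG5 was searched. The first target was the exons of all its basic transcripts, 8782 nt in all, which include long retained sequence. Against it the longest exact match at the summit was longer than in both windows 5 kb to either side for 18 of 61 Odd members, 29.5% (19.6 to 41.9), and shorter than in both for 20. For the best Even members these were 9 and 18 of 57. The median of the longest match was 13 nt at Odd summits, 12 nt in the windows to the left and 14 nt in those to the right, so with this target the summits were not set apart from their surroundings.

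The spliced 6-exon transcript, which has the exon number of the short isoform that the study worked with, was searched after those values had been seen. With it the match was longer at the summit than in both neighbouring windows for 47 of 61 Odd members, 77.0% (65.1 to 85.8), and shorter than in both for 1. A match of at least 11 nt lay in 49 of 63 summit windows, 77.8% (66.1 to 86.3), in 5 of 63 windows to the left, 7.94%, and in 7 of 61 to the right, 11.5%. Of all Odd peaks 54.1% had such a match. Introns had 68.8% and coding sequence 35.3%, and members exceeded coding sequence by 42.5 points (29.5 to 52.5), while the interval against introns included 0. A match of at least 12 nt lay in 37 of 63 Odd summit windows, 58.7%, and in 0 of 63 and 0 of 61 neighbouring windows. Since the target was chosen with the other target's result known, these counts are a description.

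Even members showed less of this. Of the best Even members 29 of 58 held a match of at least 11 nt, 50% (37.5 to 62.5; 43.7% of the best Even peaks), against 14.0% and 13.8% of the neighbouring windows. Of all Even members 228 of 969 did, 23.5% (21.0 to 26.3; 24.7% of the list), against 11.2% and 12.4%. Of the Odd members without copies elsewhere, 37 of 47 held a match of at least 11 nt, 78.7%.

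**Figure D4:**
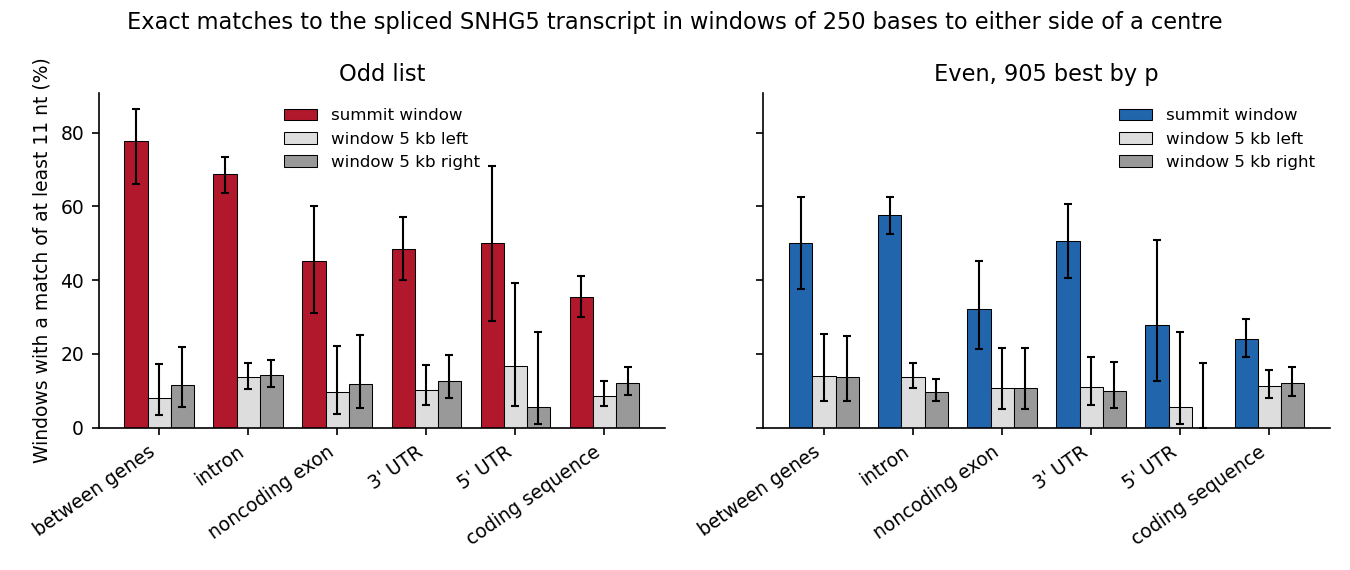
Share of windows with an exact match of at least 11 nt to the spliced SNHG5 transcript, at the summit (coloured) and 5 kb to either side (grey), by annotation at the summit, for the Odd list and the best Even peaks; bars show 95% Wilson intervals. For Odd peaks between genes the share is 77.8% at the summit and 7.94% and 11.5% in the neighbouring windows.

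The matches lay close to the summits. In 46 of the 49 Odd members with a match, its middle was within 100 bp of the summit, 93.9% (83.5 to 97.9), at a median of 34.5 bp. In the best Even members it was 24 of 29, 82.8%, and in all Even members 152 of 228, 66.7%. In the neighbouring windows of Odd members 0 of 5 and 1 of 7 lay so near the centre.

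They also fell on few parts of SNHG5. A stretch was counted as matched when a match of at least 11 nt shared 8 or more of its positions. The stretches were picked from the matches of these same members, so their counts, also beside the neighbouring windows, are a description. Positions 294 to 309 were matched by 26 of the 63 Odd members, 41.3% (30.0 to 53.6), of which 5 had copies elsewhere, and by 0 of their neighbouring windows. Positions 273 to 284 were matched by 11, of which 7 had copies, and positions 72 to 81 by 5. Among the best Even members positions 294 to 309 were matched by 4 of 58, positions 281 to 293 by 5, all with copies elsewhere, and positions 44 to 58 by 6. Positions 44 to 58 were also matched by 2 of 58 of their windows to the left and 1 of 58 to the right. Of the Odd members 0 matched positions 44 to 58.

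**Figure D5:**
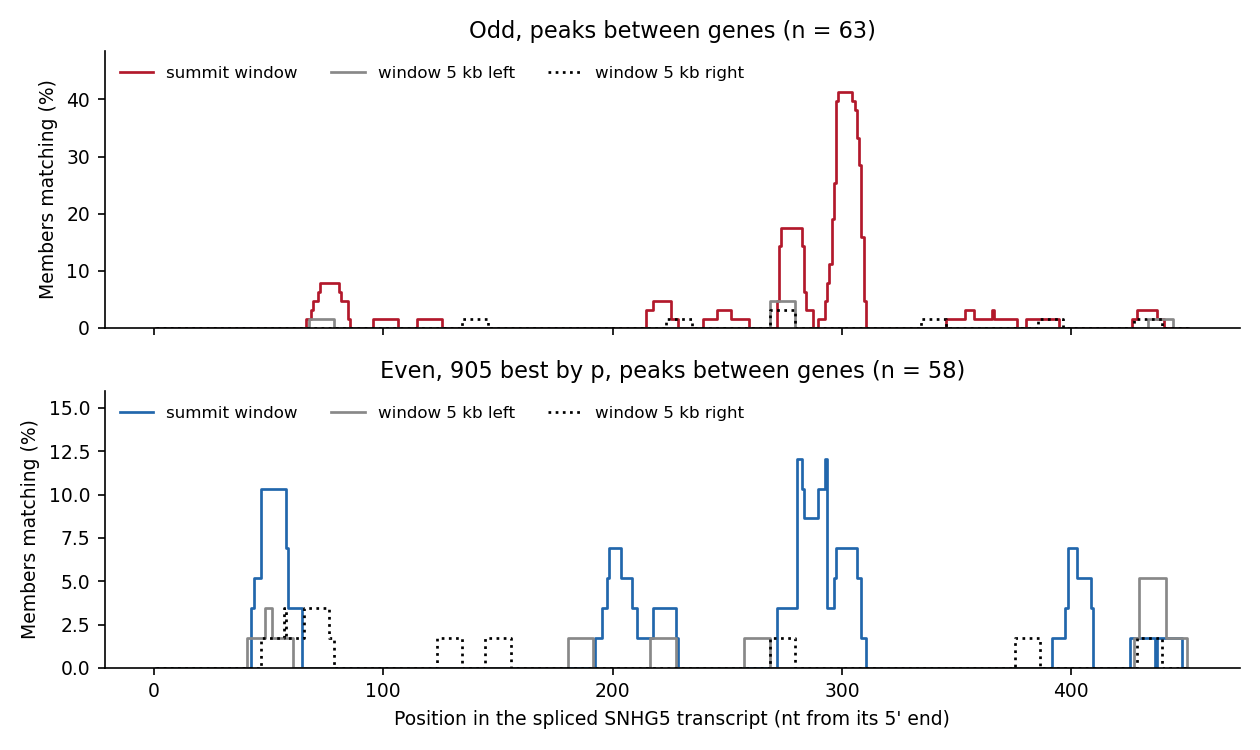
Share of peaks between genes whose window holds an exact match of at least 11 nt that covers each position of the spliced SNHG5 transcript (451 nt), at the summit (coloured) and 5 kb to the left (grey) and right (dotted), for the 63 Odd and the 58 best Even members. Odd members pile up at positions 294 to 309, matched by 41.3%.

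The 10-nt words in capitals in the SNHG5 lines were counted on both strands, and no 2 of them overlap in SNHG5. GAGGCCAGAT, at positions 299 to 308, was in 21 of 63 Odd members, 33.3%, in 25.8% of Odd intron peaks, in 5.88% of Odd coding peaks and in 0 of 126 neighbouring windows, which allows a share of up to 2.96% by the Wilson interval. It was in 3 of 58 best Even members and in 0.128% of all 2291266 windows of the same length between genes. TGAGGGTCGC, at positions 273 to 282, was in 9 Odd members, 14.3%, in 2.55% of Odd intron peaks and in 0.00864% of the windows between genes. The 9 include the 3 copies past CPZ. GGTGGTAGGA, at positions 48 to 57, was in 0 of 63 Odd members and in 9 of 58 best Even members, 15.5%, against 23.6% of best Even intron peaks and 0.110% of the windows. A match is a description of sequence and does not show where an oligonucleotide or SNHG5 bound. Whether these words lie within the targets of the oligonucleotides of each pool was not tested. Sites of the oligonucleotides and sites of SNHG5 therefore cannot be told apart here.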

How the data were processed

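Reads were trimmed (cutadapt) and aligned to hg19 (STAR) by the authors, who ran MACS 2.0.9 with a p limit of 0.001 and both control libraries together as background. The Odd list is the set that passed IDR, a filter on reproducibility between replicates, and was called on pooled libraries, whereas an Even replicate failed and the Even list comes from 1 library. The authors deposited the pileup of each peak, a signal of coverage at the summit, its fold enrichment, a ratio to the control, and a −log10 p-value, which was used here to rank peaks. The deposited q-values were not used. Start, end and summit positions were used as deposited. There were 0 columns of other samples.

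Members and gene families were chosen with earlier results of these data known. Each summit was placed against basic transcripts of GENCODE version 44 mapped to GRCh37, a later annotation than the study's, and against the edges of the nearest genes. Peaks within 10 kb of each other formed a cluster. Copies were exact 48-nt sequences found elsewhere in the reference chromosomes, on either strand, so copies with mismatches were not counted. Exact matches to SNHG5 were searched on both strands within 250 bp of the summit and in windows 5 kb to either side. The peaks named in each list are the 10 with the largest fold enrichment, the 5 largest within 5 kb past a gene end, the largest pileup, the 3 largest clusters and the Odd peaks with a best Even peak on them, and others are named beside a sequence or as said in the text. Shares have Wilson intervals, differences of shares Newcombe intervals and medians intervals from order statistics. No test across peaks was made, because peaks of a list share their libraries. Overlaps, matches, copies and intervals were checked on simulated data. Python 3.11.15, numpy 2.4.6, pandas 2.3.3, scipy 1.17.1, pysam 0.24.0, numba 0.67.0 and matplotlib 3.10.9 were used. The table of oligonucleotide sequences was not used here.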

Additional observations from a re-analysis of the deposited data

How the results depend on the processing

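No paired analysis was possible because each list was called on pooled libraries or on 1 library, and for the same reason no replicate could be left out. Of 92 values under alternatives, 44 lay within the 95% interval of the reported value, and 48 outside it are given here.

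With all GENCODE transcripts the share between genes was 4.71% for Odd and 9.72% for Even, and with transcripts of protein coding and lncRNA genes only it was 13.8% for Even. For the best Even peaks, and for as many as the conservative IDR number, the share between genes was 6.78% and 5.97%, the share downstream within 5 kb 25.9% and 23.8%, the share in clusters 0% in both, the median GC content 46.4% and 47.6%, the median pileup 77.0 and 100, the median fold enrichment 50.9 and 60.0, the share found with both pools 15.5% and 14.3%, that with copies elsewhere 27.6% and 26.2%, that with a longer match to all SNHG5 exons than in both neighbouring windows 15.8% and 17.1%, and that with a match of at least 11 nt 50% in both. Odd members overlapped by the best Even peaks were 14.3%, and 10.9% with the conservative number of each list. The downstream share was 9.52% for Odd and 5.56% for Even within 1 kb, 31% for Even within 10 kb, and 20.6% and 9.77% with the nearest protein coding gene only. The share in clusters was 0% for Odd and 8.02% for Even with a gap of 5 kb, and 15.9% and 23% with 50 kb. Median Even GC content was 45.3% within 100 bp of the summit and 45.2% over whole peaks. Any copied 48-nt sequence was found in 54.0% of Odd and 62.3% of Even members, and 11.1% and 6.81% had at least 90% copied. Without copies the chromosome 9 share was 8.51% and 6%.

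These alternatives were chosen after seeing the data: the spliced SNHG5 transcript as target, with longer matches in 77.0% of Odd and 28.8% of Even members, and matches of at least 12 nt (58.7% and 12.7%) or 13 nt (27% and 6.09%), as were those on chromosome 9 and matches of at least 11 nt. Depth limits the Even list, since 60.8% of its members have a pileup of at most 6, about 2.96 tags.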
